A study of Arabidopsis thaliana with 24 samples.

Results

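The genes described here are 9 MADS-box genes that control when Arabidopsis thaliana flowers. They are FLC, its relatives FLM and MAF2 to MAF5, their partner SVP, and the promoters of flowering SOC1 and AGL24. They were picked by name and gene identifier. The rule uses no measured value, although it was written with earlier results of these data known. They make up 9 of the 33602 genes in the count table. All 9 had counts, but these were few, so the raw read counts are given beside the scaled values.

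MADS-box proteins are transcription factors that bind DNA in pairs or larger complexes. FLC and its relatives repress flowering, and they do so largely together with SVP, by holding down FT, a signal made in leaves, and SOC1, which gathers several flowering pathways at the shoot tip. FLC is lowered by long cold and by the autonomous pathway and raised by FRIGIDA, while FLM and MAF2 are known for delaying flowering at cool ambient temperatures, partly through splice forms. A count per gene does not separate splice forms.

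RNA was read from whole seedlings of Col-0, the reference accession, and IP-Svi-0, a natural accession studied for its early flowering. Neither carried an introduced allele or agent in the labels, and both were grown on the same medium after a cold period of imbibed seed. Each accession had 3 libraries at 10, 16, 23 and 27 °C, which makes 8 groups and 24 libraries. The seedlings at 10 °C were 23 days past transfer when taken, those at 16 °C 12 days, those at 23 °C 8 and those at 27 °C 7, so temperature and age cannot be told apart. The labels do not say that replicates were separate cultures, so p-values measure the spread between these libraries, which may be technical. In whole seedlings, fewer cells of a type and less RNA per cell cannot be told apart.

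Each library had 338784 to 870567 counts at genes, which is 1.41 to 3.61% of its reads, and 59.6 to 89.8% of reads were assigned to no gene. The library kit kept the strand, but which strand was counted is not known here, so a count at a member may stem from RNA of the opposite strand. Of the nuclear genes, 20.5% have an annotated exon on their opposite strand, and 54.2% of nuclear counts fell on them. The other nuclear counts fell on genes whose exons overlap no annotated exon of the opposite strand. Their share was 39.1 ± 4.35% for Col-0 at 10 °C and 48.6 ± 4.69% for IP-Svi-0 (SD, n = 3 each). It lay between 40.8 and 48.5% in the other groups. Alignment was to the Col-0 reference for both accessions, and IP-Svi-0 reads that differ from it may have been lost. Reads not aligned were 0.364 to 0.533% in Col-0 libraries and 1.35 to 1.98% in those of IP-Svi-0. Reads with an alignment of too low quality were 2.39 to 3.33% and 5.10 to 6.34%. The part of these reads in the accession differences was not tested. RBCS1A, a Rubisco subunit of green tissue, had 977 to 17902 counts in a library and PRP3, a root gene, 1 to 42, and both had counts in all 24 libraries. Of the floral genes listed, AP1, FUL and LFY had 0, 3 and 5 counts over the 24 libraries, but others had more. SEP3 had 17 counts in Col-0 against 29 in IP-Svi-0, of which 24 at 27 °C, SEP1 22 against 2, STK 17 against 29 and SHP1 317 against 235. Their part in the results was not tested.

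Over all temperatures, FLC and SOC1 had more counts in IP-Svi-0 than in Col-0, and FLM and MAF2 had fewer. These 4 were called among the 6 members with enough counts for the fit across genes (edgeR's quasi-likelihood test, Benjamini-Hochberg adjusted p under 0.05), 2 of them higher and 2 lower. In the same comparison 32.7% of the 10097 genes tested were called, 16% higher and 16.7% lower. The median log2 difference was 0.12 over the 6 members and 0.022 over all genes tested. SVP and MAF4 were tested and not called, and MAF3, MAF5 and AGL24 did not pass the filter. FLC and SOC1 passed it through IP-Svi-0: no Col-0 library had more than 5 counts at FLC or 4 at SOC1, under the minimum count of 10 of the filter. FLM passed it through Col-0, since the filter asks for its minimum, scaled to library size, in at least 3 libraries. In IP-Svi-0 only 10 °C replicate 2 had more than 10 counts at FLM, 11 in a library of 847748. All 4 were also called with that share of counts as a covariate, and in each fit that left out 1 library. The count of called members is therefore a description and no support for a property of the set.

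**Figure D1:**
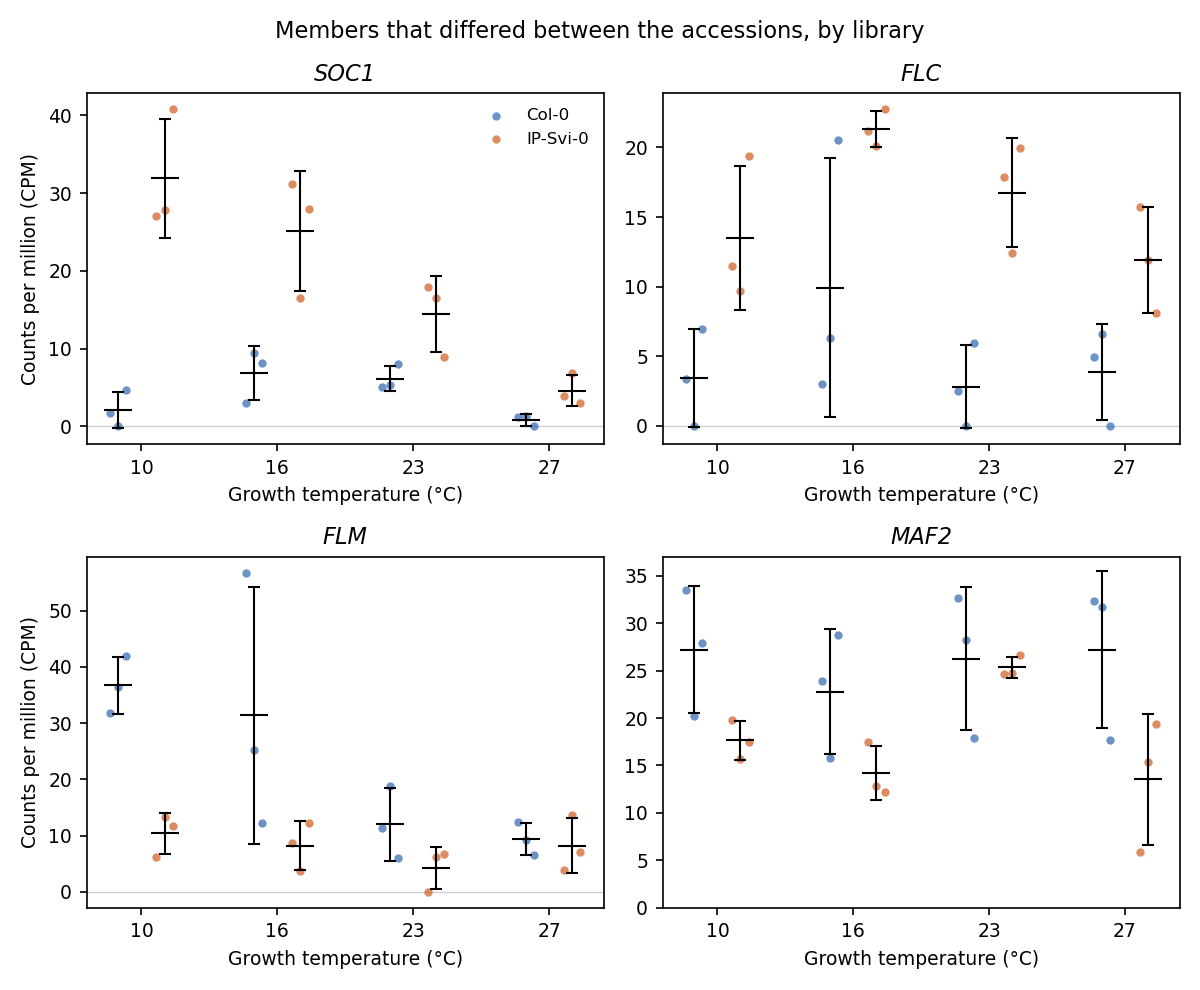
Counts scaled to 1000000 per library (CPM, linear axis) at SOC1, FLC, FLM and MAF2 in each library by growth temperature, in blue for Col-0 and orange for IP-Svi-0. Horizontal bars are group means and error bars the SD of 3 libraries. All IP-Svi-0 libraries lie above those of Col-0 at each temperature for SOC1. The FLM means differ by 26.3 CPM at 10 °C and by 1.19 CPM at 27 °C. The change of the FLM log2 difference between these temperatures was not called (edgeR adjusted p = 0.282).

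FLC (AT5G10140), the central repressor of the vernalization pathway, lies on the minus strand of chromosome 5 from 3173382 to 3179448 and is annotated as protein-coding with 8 exon blocks. At 10 °C its counts in replicates 1 to 3 were 2, 0 and 3 in Col-0 and 11, 8 and 10 in IP-Svi-0. Scaled to 1000000 counts per library (CPM), these were 3.35, 0 and 6.98 CPM against 11.5, 9.67 and 19.4 CPM, and the groups did not overlap. At 16 °C the counts were 1, 2 and 5 in Col-0 and 17, 11 and 13 in IP-Svi-0. Here Col-0 replicate 3, at 20.5 CPM, lay within the IP-Svi-0 range of 20.1 to 22.7 CPM. Its 5 counts stood in the library with the smallest scaled total, where 1 count is worth 4.10 CPM. At 23 °C the counts were 2, 0 and 3 against 8, 6 and 9, and at 27 °C 4, 5 and 0 against 8, 7 and 8, with no overlap in CPM at either temperature. The sums over 12 libraries were 27 counts in Col-0, where 3 libraries had none, and 116 in IP-Svi-0, where each library had at least 6.

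The mean level of FLC was 5.02 ± 5.54 CPM for Col-0 against 15.9 ± 4.97 CPM for IP-Svi-0 (SD, n = 12 each), a 3.28-fold difference (log2 difference 1.72, SE 0.34, edgeR adjusted p = 0.000109). An exact permutation of accession labels within each temperature, two-sided, gave p = 2.5e-05 for the difference of 10.9 CPM. IP-Svi-0 was higher at 4 of 4 temperatures, with log2 differences of 1.22 to 2.65. Of these 4, the difference at 23 °C was called (log2 difference 2.65, SE 0.70, adjusted p = 0.0108). It was not called without Col-0 23 °C replicate 1 (adjusted p = 0.052), Col-0 23 °C replicate 2 (0.0967) or IP-Svi-0 23 °C replicate 3 (0.0534).

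FLC is the one member with an annotated gene on its other strand. The long noncoding RNA AT5G01675 runs from 3173371 to 3179600 on the plus strand and covers all 6067 bp of FLC. Its exons overlap 804 of the 1180 bp of FLC exon, at both ends of the gene. With the strand of the counts unknown, the values at FLC may include RNA of AT5G01675, which was not analysed here. The part of that RNA in the accession difference was not tested. None of the other 8 members had an annotated exon on the other strand.

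**Figure D2:**
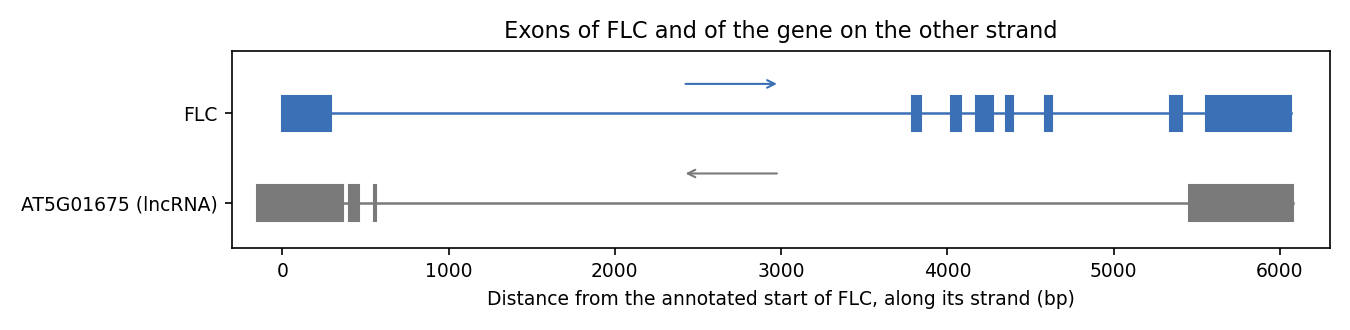
Exons (boxes) of FLC and of AT5G01675, the noncoding gene on the other strand, against the distance in bp from the annotated start of FLC along its own strand; arrows show the direction of transcription. The exons of AT5G01675 cover the first FLC exon and the last one, and the internal FLC exons lie in an intron of AT5G01675.

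FLM (AT1G77080), which delays flowering with SVP in cool conditions, differed in the other direction. It lies on the plus strand of chromosome 1 from 28955483 to 28960234. At 10 °C the Col-0 libraries had 19, 9 and 18 counts (31.9, 36.3 and 41.9 CPM) and those of IP-Svi-0 6, 11 and 6 (6.26, 13.3 and 11.6 CPM). At 16 °C Col-0 had 19, 8 and 3 counts (56.7, 25.2 and 12.3 CPM) and IP-Svi-0 7, 2 and 7 (8.71, 3.66 and 12.2 CPM). The groups did not overlap at 10 °C, and at 16 °C the lowest Col-0 library stood just above the highest of IP-Svi-0. At 23 °C Col-0 had 9, 14 and 3 counts (11.3, 18.8 and 5.98 CPM) and IP-Svi-0 0, 3 and 3 (0, 6.20 and 6.66 CPM). At 27 °C Col-0 had 10, 7 and 3 counts (12.4, 9.23 and 6.61 CPM) and IP-Svi-0 2, 8 and 7 (3.93, 13.6 and 7.12 CPM). At the 2 warmer temperatures the accessions overlapped.

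Over all temperatures FLM had 122 counts in Col-0 against 62 in IP-Svi-0. The means were 22.4 ± 16.2 and 7.78 ± 4.26 CPM (SD, n = 12 each), 2.61-fold lower in the second accession (log2 difference -1.38, SE 0.29, edgeR adjusted p = 0.000232; exact permutation p = 0.00085 for -14.6 CPM). FLM was called at 10 °C (log2 difference -1.83, SE 0.47, adjusted p = 0.00403) and at 16 °C (log2 difference -1.96, SE 0.54, adjusted p = 0.0156). It was not called at 23 °C (log2 difference -1.49, adjusted p = 0.211) or 27 °C (log2 difference -0.25, adjusted p = 0.885). The 16 °C value rested on Col-0 16 °C replicate 1, without which it was -1.19 with an adjusted p of 0.267. Of the 24 libraries, that one had the largest share of reads without a unique alignment, 35.8%. It also had the largest share of its gene counts at organelle genes, 9.72%. Of the 50-base words in FLM exons, 0.28% occur elsewhere in the genome.

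MAF2 (AT5G65050) is a relative of FLM that also represses flowering and is known to act against flowering after short cold. It is the first of a row of 4 tandem genes, MAF2 to MAF5, on the plus strand of chromosome 5 between 25982254 and 26002619. At 10 °C Col-0 had 20, 5 and 12 counts (33.5, 20.2 and 27.9 CPM) and IP-Svi-0 19, 13 and 9 (19.8, 15.7 and 17.5 CPM), without overlap. At 16 °C Col-0 had 8, 5 and 7 counts (23.9, 15.8 and 28.7 CPM) and IP-Svi-0 14, 7 and 7 (17.4, 12.8 and 12.2 CPM), and the groups overlapped. The accessions lay closest at 23 °C, with 26, 21 and 9 counts in Col-0 and 11, 12 and 12 in IP-Svi-0, or 26.3 ± 7.53 and 25.3 ± 1.12 CPM. At 27 °C Col-0 had 26, 24 and 8 counts (32.3, 31.7 and 17.6 CPM) and IP-Svi-0 3, 9 and 19 (5.90, 15.3 and 19.3 CPM), which overlapped.

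Over all temperatures MAF2 had 25.9 ± 6.51 CPM for Col-0 against 17.7 ± 5.93 CPM for IP-Svi-0 (SD, n = 12 each), 1.5-fold lower (log2 difference -0.58, SE 0.19, edgeR adjusted p = 0.0152; exact permutation p = 0.00364). IP-Svi-0 was lower at 4 of 4 temperatures and the difference was called at none of them, with log2 differences of -0.95 to -0.090 (lowest adjusted p = 0.101); the 23 °C value became positive with the covariate (0.075) and without Col-0 23 °C replicate 1 (0.065). No 50-base word of MAF2 exons occurs elsewhere in the genome.

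The bases before the annotated starts of the 4 called genes are shown because FLM and MAF2 share a long identical stretch there. The sequences are from the RefSeq genome TAIR10.1, which is Col-0, 250 bases each, 5′ to 3′ on the strand of the gene. Capitals mark the run of 35 bases that is identical in FLM and MAF2, which begins 88 bases before the start of FLM and 185 bases before that of MAF2. The windows are chr1:28955233-28955482 on the plus strand for FLM, chr5:25982004-25982253 on the plus strand for MAF2, chr5:3179449-3179698 on the minus strand for FLC and chr2:18811126-18811375 on the minus strand for SOC1.
FLM: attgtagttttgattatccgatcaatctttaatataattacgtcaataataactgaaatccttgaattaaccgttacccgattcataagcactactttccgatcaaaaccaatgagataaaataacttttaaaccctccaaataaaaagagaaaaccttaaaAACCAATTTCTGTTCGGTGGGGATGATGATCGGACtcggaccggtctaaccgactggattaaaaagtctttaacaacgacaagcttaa
MAF2: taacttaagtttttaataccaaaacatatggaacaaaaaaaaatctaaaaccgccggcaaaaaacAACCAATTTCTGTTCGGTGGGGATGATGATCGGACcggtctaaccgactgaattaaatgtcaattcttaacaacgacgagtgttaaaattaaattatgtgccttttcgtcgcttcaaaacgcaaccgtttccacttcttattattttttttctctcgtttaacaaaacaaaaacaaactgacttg
FLC: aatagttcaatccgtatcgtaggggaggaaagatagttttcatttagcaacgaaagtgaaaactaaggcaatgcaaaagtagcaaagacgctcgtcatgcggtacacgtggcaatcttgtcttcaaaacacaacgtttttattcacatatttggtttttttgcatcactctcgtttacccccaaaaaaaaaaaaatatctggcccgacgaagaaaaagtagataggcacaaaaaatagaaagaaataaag
SOC1: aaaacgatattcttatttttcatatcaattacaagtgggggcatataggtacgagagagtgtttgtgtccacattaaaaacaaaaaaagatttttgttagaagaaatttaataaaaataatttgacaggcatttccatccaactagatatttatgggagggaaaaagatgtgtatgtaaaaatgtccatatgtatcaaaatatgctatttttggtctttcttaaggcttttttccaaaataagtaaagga

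Among all 36 pairs of the 9 members, compared over windows that also held the first 50 bases from the start, the 35-base run of FLM and MAF2 was the longest shared on the same strand. The other 35 pairs shared 8 to 20 bases. The next longest were 20 bases for FLM and MAF3 and for MAF4 and MAF5, 18 for MAF2 with MAF3 and with MAF4, and 15 for FLC and MAF2. Long runs were therefore not confined to members that differed in the same direction. The CArG box, the motif that MADS-box factors are known to bind, was searched in the same windows, where a match on one strand is also a match on the other. It was found in 0 of 9 members and in 837 of 27443 protein-coding genes (3.05%). No match says only that these letters are not in this window.

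MAF4 (AT5G65070), a floral repressor of the tandem row, did not differ between the accessions beyond the spread. It had 84 counts in Col-0 against 109 in IP-Svi-0, or 13.6 ± 8.68 and 15 ± 9.82 CPM (SD, n = 12 each; log2 difference 0.17, 95% interval -0.39 to 0.72, edgeR adjusted p = 0.687). Its accession difference at single temperatures was -0.12 to 0.68 on the log2 scale, and the groups overlapped at all 4.

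MAF3 (AT5G65060), also a repressor, had 55 counts in Col-0 against 70 in IP-Svi-0. The means were 8.49 ± 8.66 and 8.87 ± 4 CPM, and the exact permutation p was 0.90 for a difference of 0.38 CPM. A single library held 19 of the 55 Col-0 counts, replicate 1 at 10 °C with 31.9 CPM, beside 0 and 5 counts in the other 2 libraries of that group. Of its exonic 50-base words 2.46% occur elsewhere in the genome. Reads without a unique alignment, 2.67 to 35.8% of a library, were left unassigned, so reads from such words may be missing from its counts.

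MAF5 (AT5G65080), the last gene of the row, whose part in flowering is less settled, had 30 counts in Col-0 against 12 in IP-Svi-0. Its Col-0 libraries had 0 to 8 counts and its IP-Svi-0 libraries 0 to 2, with none in 5 of 12. The means were 5.07 ± 4.42 and 1.56 ± 1.55 CPM, lower in IP-Svi-0 at 4 of 4 temperatures (exact permutation p = 0.0201 for -3.51 CPM, unadjusted, 1 of 9 such tests). Without IP-Svi-0 16 °C replicate 2 the p was 0.0519. With no filter on counts, the edgeR fit over 24758 genes gave a log2 difference of -1.49 (SE 0.51, adjusted p = 0.0261). Within temperatures the counting error was wide. At 10 °C, for example, 2 counts against 5 gave a ratio of 0.221 with a counting interval of 0.0211 to 1.35.

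SVP (AT2G22540), the DNA-binding partner of FLC and FLM, had the most counts of the 9, 299 in Col-0 against 388 in IP-Svi-0. It lies on chromosome 2 from 9579647 to 9583901. In Col-0 the 12 libraries ranged from 30.9 to 63.3 CPM with a median of 46.8 CPM, and in IP-Svi-0 from 27.4 to 79.6 CPM with a median of 49.7 CPM. The difference over all temperatures was 0.072 on the log2 scale (95% interval -0.22 to 0.36, edgeR adjusted p = 0.749). At 10 °C the 27, 13 and 21 counts of Col-0 (45.3, 52.5 and 48.8 CPM) lay below the 51, 54 and 41 of IP-Svi-0 (53.2, 65.3 and 79.6 CPM) without overlap, but the difference was not called (log2 difference 0.43, SE 0.29, adjusted p = 0.292). At 16, 23 and 27 °C the accessions overlapped.

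**Figure D3:**
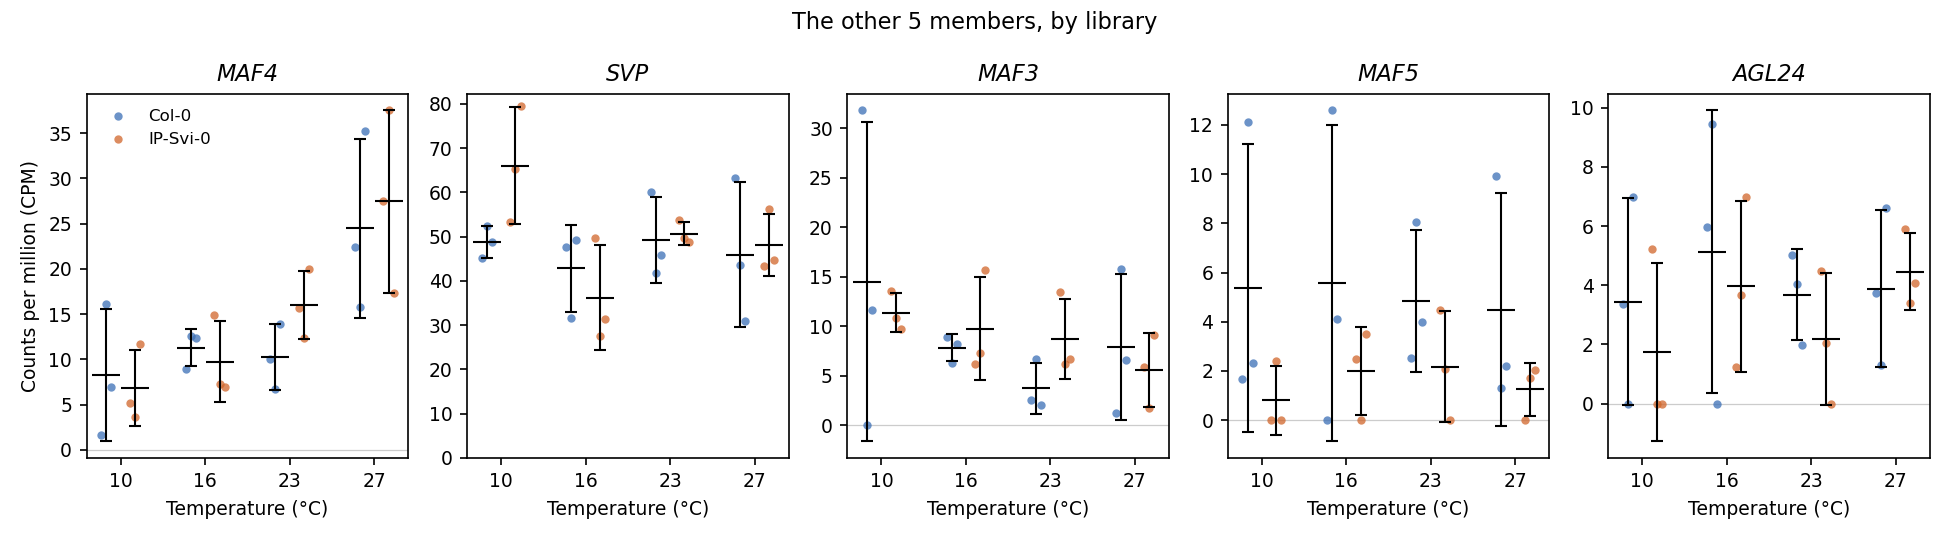
CPM (linear axes, a separate scale per gene) at MAF4, SVP, MAF3, MAF5 and AGL24 in each library by growth temperature, blue for Col-0 and orange for IP-Svi-0, with group means and the SD of 3 libraries. The accessions overlap at each temperature except for SVP at 10 °C, and MAF4 has its highest group means at 27 °C, 24.5 and 27.4 CPM.

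SOC1 (AT2G45660), the integrator that FLC and SVP repress, showed the largest accession difference of the 6 tested members on the log2 scale. It lies on the minus strand of chromosome 2 from 18807505 to 18811125, with 7 exon blocks. At 10 °C Col-0 had 1, 0 and 2 counts (1.68, 0 and 4.65 CPM) and IP-Svi-0 26, 23 and 21 (27.1, 27.8 and 40.8 CPM). At 16 °C Col-0 had 1, 3 and 2 counts (2.98, 9.45 and 8.20 CPM) and IP-Svi-0 25, 9 and 16 (31.1, 16.5 and 28.0 CPM). Every IP-Svi-0 library was above every Col-0 library in both. At 23 °C Col-0 had 4 counts in each library (5.02, 5.38 and 7.97 CPM) and IP-Svi-0 8, 8 and 4 (17.9, 16.5 and 8.87 CPM). At 27 °C Col-0 had 1, 1 and 0 counts (1.24, 1.32 and 0 CPM) and IP-Svi-0 2, 4 and 3 (3.93, 6.82 and 3.05 CPM). The accessions did not overlap at these temperatures either, although the gap at 27 °C was of a few reads.

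Over all temperatures SOC1 had 23 counts in Col-0 against 149 in IP-Svi-0, 3.99 ± 3.30 against 19.0 ± 12.0 CPM (SD, n = 12 each). This was a 4.52-fold difference (log2 difference 2.18, SE 0.33, edgeR adjusted p = 2.1e-06). The exact permutation p was 1.25e-05, the smallest that its 160000 assignments can give. At 10 °C the difference was called (log2 difference 3.61, SE 0.60, adjusted p = 1.94e-05), and the pooled 70 counts against 3 gave a ratio of 12.9 with a counting interval of 4.24 to 64.2. At 16 °C it was called by edgeR (log2 difference 1.90, SE 0.55, adjusted p = 0.0243) but not by DESeq2 (adjusted p = 0.0842). That call was also lost without any 1 of 5 of the 6 libraries at 16 °C, the exception being IP-Svi-0 replicate 2, with adjusted p of 0.0514 to 0.123. At 23 °C it was not called (log2 difference 1.26, SE 0.53, adjusted p = 0.154). At 27 °C 9 counts against 2 gave a ratio of 4.37 with a counting interval of 0.904 to 41.5, and it was not called either (adjusted p = 0.206).

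AGL24 (AT4G24540), a promoter of flowering that acts with SOC1, had 25 counts in Col-0 against 24 in IP-Svi-0, and no library had more than 5. The means were 4.04 ± 2.92 and 3.09 ± 2.41 CPM (exact permutation p = 0.399). No difference was detected.

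**Figure D4:**
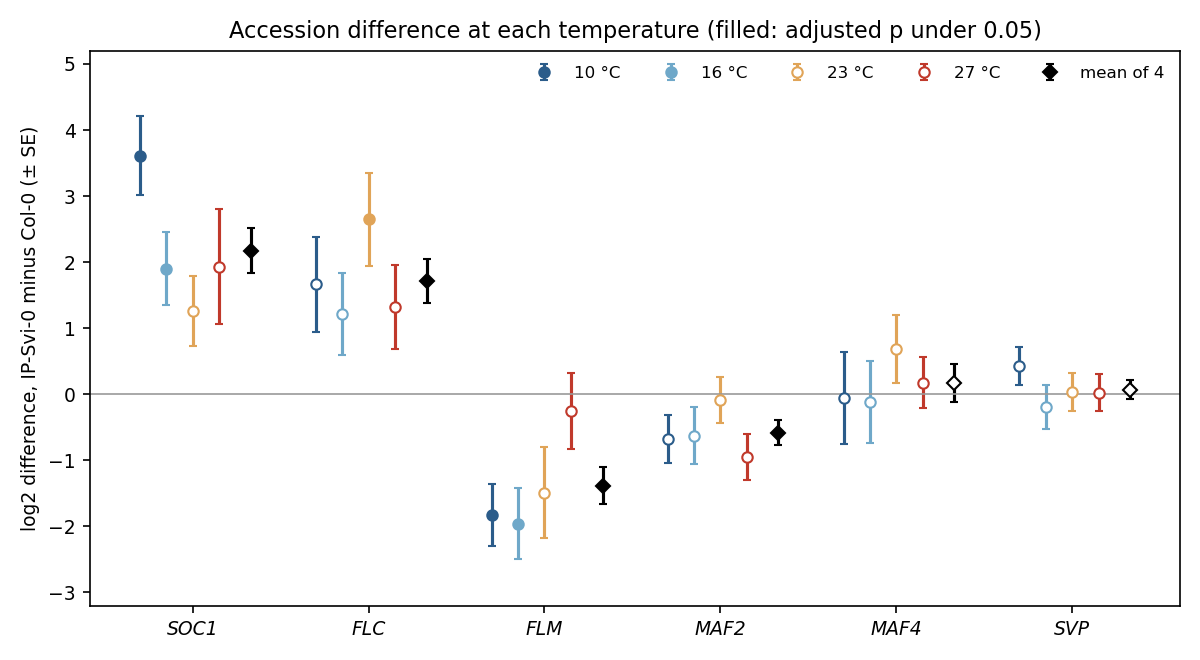
Log2 difference IP-Svi-0 minus Col-0 (± SE, edgeR) for the 6 members tested, at 10, 16, 23 and 27 °C (circles) and as the mean of the 4 (black diamonds); filled symbols have an adjusted p under 0.05. SOC1 and FLC lie above 0 and FLM and MAF2 below 0 at all temperatures, while MAF4 and SVP lie on both sides.

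By temperature, 2 of 6 members were called between the accessions at 10 °C, where 24% of genes were called, and 2 at 16 °C, where 8.22% were. At 23 °C 1 was called, with a background of 7.93%, and at 27 °C none, with a background of 8.04%. At 27 °C edgeR gave 3 of the 6 an unadjusted p under 0.05, namely FLC, MAF2 and SOC1, and DESeq2 called 0. Of the 10097 genes tested, 1871 had such an unadjusted p at 27 °C. None of the changes of the accession difference between temperatures was itself called. In the joint test of accession by temperature 0 members passed by edgeR or DESeq2, and 1.43% of genes were called. An unadjusted edgeR p under 0.05 was found for 0 members and for 1675 of the 10097 genes. The lowest p was that of SOC1 (unadjusted 0.0835, adjusted p = 0.38). Its single term for 10 against 23 °C was 2.35 (SE 0.89, adjusted p = 0.102).

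The comparison across temperatures asks whether the members change with growth temperature within an accession. All comparisons against 23 °C within an accession share its 3 libraries at 23 °C. FLM changed with temperature in Col-0, SOC1 in IP-Svi-0, and MAF4 in IP-Svi-0. In the joint test of any temperature difference, FLM was called in Col-0 (edgeR adjusted p = 0.00854), 1 of 6 members with a background of 9.76%. In IP-Svi-0, SOC1 (adjusted p = 0.00018) and MAF4 (adjusted p = 0.00845) were called, 2 of 6 with a background of 16.5%. The MAF4 value rose to 0.0747 without IP-Svi-0 27 °C replicate 2. MAF4 passed the filter on counts through its libraries at 27 °C, and SOC1 through those of IP-Svi-0 at 10 and 16 °C. FLM passed it largely through Col-0 at 10 and 16 °C. Calls of these members across temperatures are therefore a description and no support for a property of the set.

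FLM in Col-0 had 36.7 ± 5.01, 31.4 ± 22.8, 12.0 ± 6.45 and 9.42 ± 2.91 CPM at 10, 16, 23 and 27 °C (SD, n = 3 each). Against 23 °C it was 2.86-fold higher at 10 °C (log2 difference 1.52, SE 0.46, adjusted p = 0.0371), the 1 member called in that comparison, where 6.69% of genes were. DESeq2 did not call it (adjusted p = 0.0511). It was not called without Col-0 10 °C replicate 2 (0.0802) or replicate 3 (0.168), or without Col-0 23 °C replicate 1 (0.134) or replicate 3 (0.12). In IP-Svi-0 the means of FLM were 10.4 ± 3.68, 8.20 ± 4.31, 4.28 ± 3.72 and 8.23 ± 4.94 CPM, and no comparison was called.

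SOC1 in IP-Svi-0 had 31.9 ± 7.68 CPM at 10 °C, 25.2 ± 7.71 at 16 °C, 14.4 ± 4.86 at 23 °C and 4.60 ± 1.97 at 27 °C. The libraries at 10 and 16 °C were mostly above those at 23 °C, and those at 27 °C were below all others. Against 23 °C, however, no single temperature was called. The log2 difference was 1.09 at 10 °C (SE 0.40, adjusted p = 0.0582), and this became a call in 15 of 24 fits that left out 1 library. At 27 °C it was -1.68 (SE 0.56, adjusted p = 0.436), a comparison in which no gene was called. In Col-0 the means were 2.11 ± 2.36, 6.88 ± 3.43, 6.12 ± 1.61 and 0.854 ± 0.740 CPM. There the 2 counts at 27 °C against 12 at 23 °C gave a ratio of 0.169 with a counting interval of 0.0184 to 0.758.

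MAF4 followed the opposite order. In IP-Svi-0 its counts were 5, 3 and 6 at 10 °C, 12, 4 and 4 at 16 °C, 7, 6 and 9 at 23 °C and 14, 22 and 17 at 27 °C. In Col-0 they were 1, 4 and 3, then 3, 4 and 3, then 8, 5 and 7, and at 27 °C 18, 12 and 16. The 27 °C libraries had more counts than any other library of their accession in both cases. In CPM, Col-0 10 °C replicate 2 (16.2) and IP-Svi-0 23 °C replicate 3 (19.97) lay within the 27 °C range. The group means were 6.83 ± 4.25, 9.75 ± 4.49, 16.0 ± 3.80 and 27.4 ± 10.1 CPM in IP-Svi-0, and 8.27 ± 7.32, 11.3 ± 2.03, 10.2 ± 3.62 and 24.5 ± 9.89 CPM in Col-0. The joint test did not call it in Col-0 (adjusted p = 0.0729).

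The extremes, 27 against 10 °C, were compared after the group means had been seen. MAF4 had passed the filter through libraries at 27 °C, SOC1 through libraries at 10 and 16 °C, and FLM largely so. The calls in this comparison are therefore a description. In Col-0, FLM was lower at 27 °C (log2 difference -1.87, SE 0.48, edgeR adjusted p = 0.00798) and MAF4 higher (log2 difference 1.82, SE 0.56, adjusted p = 0.0281), 2 of 6 members with a background of 11.4%. The MAF4 call in Col-0 was lost with DESeq2 (0.0511) and without Col-0 10 °C replicate 1 (log2 difference 1.13, adjusted p = 0.243), Col-0 10 °C replicate 3 (0.0806), Col-0 27 °C replicate 1 (0.0641) or Col-0 27 °C replicate 3 (0.1). In IP-Svi-0, SOC1 was lower at 27 °C (log2 difference -2.77, SE 0.46, adjusted p = 3.94e-05) and MAF4 higher (log2 difference 2.06, SE 0.48, adjusted p = 0.0019), 2 of 6 with a background of 18.4%. The FLM value in IP-Svi-0 was -0.29 (SE 0.56, adjusted p = 0.781). The difference between the accessions in this response was not called for any member by edgeR or DESeq2, with a background of 0.971%. An unadjusted edgeR p under 0.05 was found for 1 of 6 members, FLM, and for 1699 of the 10097 genes tested. The difference between responses was 1.57 for FLM (SE 0.76, adjusted p = 0.282), -1.68 for SOC1 (SE 1.503, adjusted p = 0.628) and 0.24 for MAF4 (SE 0.80, adjusted p = 0.925).

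FLC, MAF2 and SVP did not pass any comparison across temperatures. FLC stayed between 11.9 and 21.3 CPM in the group means of IP-Svi-0, and between 2.83 and 9.93 CPM in those of Col-0. At 16 against 23 °C in Col-0 its log2 difference was 1.78 (SE 0.88, adjusted p = 0.451), with 8 counts against 5. In IP-Svi-0 its differences from 23 °C were -0.55 to 0.35. MAF2 was lower at 10, 16 and 27 °C than at 23 °C in IP-Svi-0, by log2 differences of -0.80 to -0.51 (lowest adjusted p = 0.315), and within -0.27 to 0.080 in Col-0. The SVP differences from 23 °C were -0.45 to 0.36 in IP-Svi-0, against -0.22 to -0.036 in Col-0. The numbers of members called against 23 °C were 0 of 6 in Col-0 at 16 °C (background 1.23%, 2 at an unadjusted p under 0.05) and 27 °C (0.109%, 2). They were also 0 in IP-Svi-0 at 10 °C (15.8%, 2), 16 °C (0.792%, 1) and 27 °C (0%, 2), and DESeq2 called 0 in these 5 comparisons. Of the 10097 genes tested, 1112 and 488 had an unadjusted p under 0.05 in Col-0 at 16 and 27 °C. In IP-Svi-0 2926, 1517 and 681 did so at 10, 16 and 27 °C. MAF3 did not pass the filter of the main fit. With no filter its log2 difference in Col-0 at 10 against 23 °C was 2.12 (SE 0.60, edgeR adjusted p = 0.0196), where the 10 °C counts were 19, 0 and 5.

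Ordered by mean CPM over the 8 groups, most neighbours overlapped in their ranges. Of the 7 neighbouring pairs in each order, 7 overlapped for 8 of the members and 6 for FLC. Such overlaps were not counted over all genes, so these numbers are a description and no trait of FLC. The FLC order ran from IP-Svi-0 at 16, 23, 10 and 27 °C to Col-0 at 16, 27, 10 and 23 °C, and the first pair did not overlap. For SOC1 the order was IP-Svi-0 at 10, 16 and 23 °C, Col-0 at 16 and 23 °C, IP-Svi-0 at 27 °C, and Col-0 at 10 and 27 °C. For FLM it was Col-0 at 10, 16 and 23 °C, IP-Svi-0 at 10 °C, Col-0 at 27 °C, and IP-Svi-0 at 27, 16 and 23 °C. For MAF2 it was Col-0 at 10, 27 and 23 °C, IP-Svi-0 at 23 °C, Col-0 at 16 °C, and IP-Svi-0 at 10, 16 and 27 °C.

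Levels of different genes can be set side by side only per length of exon. SVP had the highest level in both accessions, 26.1 ± 5.39 CPM per kb for Col-0 and 28.1 ± 7.71 for IP-Svi-0 (SD, n = 12 each). In Col-0, MAF4 with 8.24 ± 5.27 and MAF2 with 7.64 ± 1.92 CPM per kb came next, and FLC with 4.25 ± 4.70 and SOC1 with 2.57 ± 2.12 were among the low ones. In IP-Svi-0, FLC with 13.5 ± 4.21 and SOC1 with 12.3 ± 7.74 CPM per kb came after SVP. FLM was at 4.997 ± 3.61 and 1.74 ± 0.95 CPM per kb, over an annotated exon length of 4480 bp that joins all its transcripts. The lengths of the other members were joined in the same way, 3384 bp for MAF2 and 1646 bp for MAF4. The order of these levels therefore depends on the annotated lengths. SVP stood above the other 8 by more than its SD in both accessions.

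**Figure D5:**
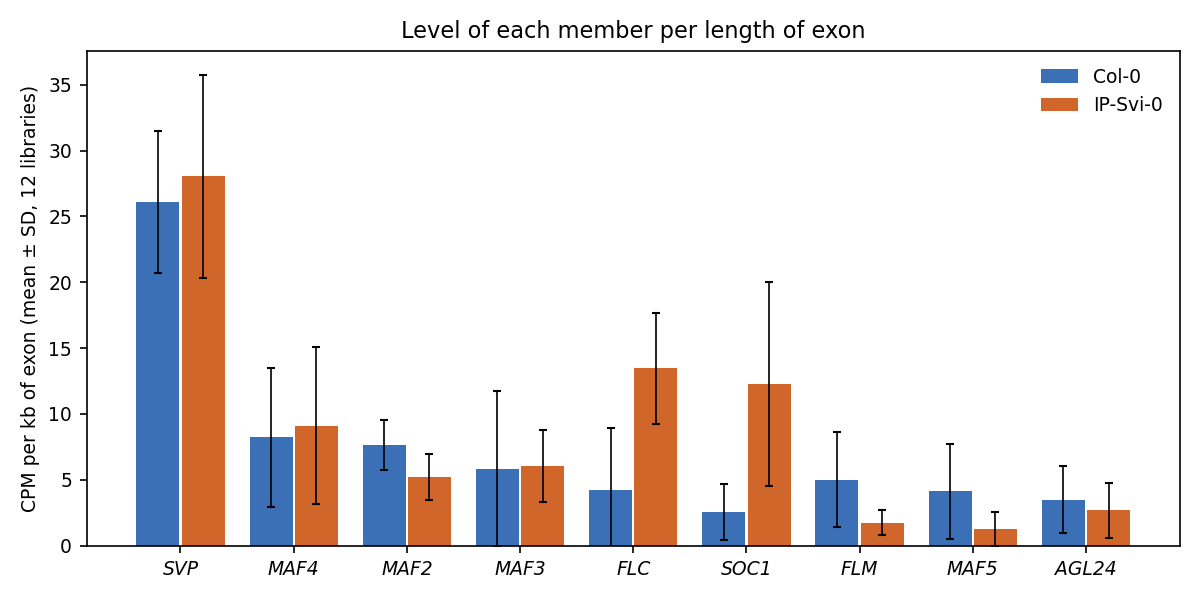
Mean CPM per kb of annotated exon for each member (bars from 0, linear axis) in Col-0 (blue) and IP-Svi-0 (orange), with error bars of the SD over 12 libraries drawn down to 0 at most. SVP is at 26.1 and 28.1 CPM per kb, and FLC and SOC1 reach 13.5 and 12.3 CPM per kb in IP-Svi-0.

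The genes most like each called member were found by Pearson's r over the 8 group means of log2 CPM among 10091 other tested genes. All 8 points share libraries with one another across genes, so r is a description. For SOC1 they were CYP72A15 (0.994), CYP706A6 (0.987) and EMB3119 (0.986), the last opposite AT3G01505, and 45 genes exceeded 0.95. For FLC they were AT5G55570 (0.983), which lies opposite AT5G55580, SBP2 (0.974) and AT2G25450 (0.971), and 9 genes exceeded 0.95. For FLM they were AT3G23600 (0.972), AT1G16690 (0.966) and AT3G11250 (0.96), and for MAF2 AT1G10850 (0.968), CYP71B13 (0.949) and AT4G16330 (0.942). AT1G10850 lies opposite AT1G04823 and AT1G10865, and AT4G16330 opposite AT4G16310.

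Other genes of the pathway were followed in 3 lists. Of 28 regulators of FLC, 20 were tested over all temperatures, 1 was higher in IP-Svi-0, 4 were lower and 15 were not called, against 32.7% of all genes called in that comparison. The higher one was SWN, a Polycomb methyltransferase (log2 difference 0.54, SE 0.18, edgeR adjusted p = 0.0227). Among the lower ones, FRL2, a relative of FRIGIDA, had 239 counts in Col-0 against 40 in IP-Svi-0 (log2 difference -2.90, SE 0.27). VRN2, a Polycomb subunit that keeps FLC silent after cold, had 105 and 28 (log2 difference -2.19, SE 0.31). VIN3, which is induced by cold and silences FLC, had 115 and 81 (log2 difference -0.86, SE 0.32, adjusted p = 0.0346) and lies opposite AT5G57370. The list had a median log2 difference of 0.097. By temperature, 3, 4, 3 and 2 of the 20 were called at 10, 16, 23 and 27 °C, 1 of them higher, at 16 °C. Of all genes, 24, 8.22, 7.93 and 8.04% were called at these temperatures.

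Of 19 targets and partners of the members, 6 were tested, and SNZ, an AP2-like repressor, was the 1 called, higher in IP-Svi-0 (47 and 111 counts; log2 difference 0.98, SE 0.31, edgeR adjusted p = 0.0126). The background was again 32.7%, and the list median was 0.074. The targets FT and TSF had 7 and 3 counts in Col-0 and 22 and 7 in IP-Svi-0, too few for the fit. Of 26 other type II MADS genes, 2 were tested and 24 were not, of which 5 had no count at all. SHP1, a carpel and fruit gene, was lower in IP-Svi-0 (317 and 235 counts; log2 difference -0.76, SE 0.17, adjusted p = 0.000858) and lies opposite AT3G09155 and AT3G58790 over 471 bp of exon. AGL16, the other one tested, was not called (81 and 140 counts; log2 difference 0.31, adjusted p = 0.321).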

How the data were processed

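Whole seedlings of 8 groups with 3 libraries each were measured by strand-specific RNA sequencing. The deposited table gives raw counts at 33602 genes in each of 24 libraries. Its 5 other lines hold unassigned reads (59.6 to 89.8% without a gene) and stayed out of library sizes. The submitters' processing notes name FastQC, HISAT2, HTSeq, Cufflinks, Cuffdiff and TAIR10. Versions and the strand setting are not given in the sources used here. Positions, overlaps and sequences came from RefSeq TAIR10.1 (32835 identifiers matched, 767 not).

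Counts were scaled by TMM and fitted by edgeR 4.0.16 (R 4.3.3, limma 3.58.1), 1 mean per group over all 24 libraries, after filterByExpr (minimum count 10), which left 10097 of 24758 genes with a count and 6 of 9 members. The common biological coefficient of variation was 0.225. CPM are counts scaled to 1000000 per TMM-scaled library. SE is the log2 difference over the root of F. Benjamini-Hochberg adjusted p under 0.05 over all tested genes was called. The permutation test on CPM was two-sided, within temperature, for 9 members, unadjusted. Counting intervals are exact 95% binomial, and intervals of log2 differences use the SE and a normal quantile; counting intervals cover counting error only.

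Named were all members, up to 3 called genes per list and direction over all temperatures, and the 3 genes most like each called member. ARP6 was added for its counts in Col-0, 6104 at 16 °C against 9, 18 and 16 at 10, 23 and 27 °C. It was among the regulators of FLC not called over all temperatures (log2 difference -2.00, SE 0.86, edgeR adjusted p = 0.0705). RBCS1A and PRP3 were chosen after values were seen. The members and lists were chosen with earlier results of these data known. Numbers were not treated as pairs, since the labels name nothing shared and not every same-numbered pair had r over 0.1 (mean r 0.0085 over 84 pairs, -0.0040 over 168 others). Alternatives were DESeq2 1.42.0 and its size factors, the replicate block, other filters, the groups compared alone, organelle genes left out, a covariate for the share of counts at genes without an overlap, and each library left out. The fit was tested on simulated data.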

Additional observations from a re-analysis of the deposited data

How the results depend on the processing

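The 4 accession calls over all temperatures held in all settings and with each library left out, with log2 differences of 2.07 to 2.39 for SOC1, 1.56 to 2.05 for FLC, -1.60 to -1.20 for FLM and -0.83 to -0.52 for MAF2. MAF5 was called in addition with no filter. The replicate block left the number of members called the same in 17 of 17 comparisons (4 over all temperatures), and 13 of 24 libraries correlated best with their own of the 3 numbers, a hint from the data and not the design. Of 84 same-numbered comparisons, 20 had r over 0.1. DESeq2 size factors shifted medians by at most 0.038 on the log2 scale. The cause of the changes below was not tested unless named.

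Counts of members called moved as follows. The number of all genes called is given beside those of DESeq2 and, for Col-0 at 10 against 23 °C, of the other filters. It is not given for the other settings, so the counts are a description. With the overlap covariate they were 4 at 10 °C (FLC and MAF2 added, adjusted p = 0.041 and 0.043), 1 at 27 °C (MAF2, 0.0245) and 2 for any temperature in Col-0 (MAF4 added, 0.00469). DESeq2 gave 1 at 16 °C, 0 for Col-0 at 10 against 23 °C and 1 for Col-0 at 27 against 10 °C. Of 10097 genes it called 729, 585 and 1002 in these comparisons. Fits of the compared groups alone gave 0 at 16 °C and 0 at 23 °C, where FLM, SOC1 and FLC, the members otherwise called, did not pass the filter, 1 for IP-Svi-0 at 10 against 23 °C (SOC1) and 1 for Col-0 at 27 against 10 °C. For Col-0 at 10 against 23 °C, no filter and a minimum of 1 CPM gave 2, with 786 of 24758 and 807 of 22715 genes called. The 1 CPM minimum gave 2 for any temperature in Col-0. Without organelle genes, IP-Svi-0 at 10 against 23 °C had 1 (SOC1). Leaving out 1 library gave 0 to 2 at 16 °C, 0 to 1 at 23 °C, 0 to 1 for both accessions at 10 against 23 °C, 1 to 2 for Col-0 at 27 against 10 °C, 1 to 2 for any temperature in Col-0 and 1 to 3 in IP-Svi-0. Single libraries made calls of MAF4 in Col-0 (without Col-0 10 °C replicate 2, 0.0279), MAF4 at 10 against 23 °C in IP-Svi-0 (without IP-Svi-0 10 °C replicate 3, 0.044) and SVP in IP-Svi-0 (without IP-Svi-0 16 °C replicate 1, 0.0362).

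No called difference changed sign. Among uncalled log2 differences, MAF4 at 10 °C became 0.0052 with no filter, 0.031 with the 1 CPM minimum and 0.93 with the covariate, and MAF4 at 16 °C 0.72 with the covariate. SVP at 23 °C became -0.031 with no filter, -0.039 with the 1 CPM minimum, -0.028 without organelle genes and -0.056 in the groups alone, and SVP at 27 °C -0.017 with the 1 CPM minimum. With the covariate, MAF2 at 23 °C became 0.075, MAF4 in Col-0 at 16 against 23 °C -0.34, FLC in IP-Svi-0 at 10 against 23 °C 0.11 and the MAF4 difference between responses at 27 against 10 °C -0.59. MAF2 in Col-0 at 10 against 23 °C became -0.0025 with the 1 CPM minimum.

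With 1 library left out, uncalled accession differences crossed 0 for SVP (-0.014 to 0.14) and MAF4 (-0.0076 to 0.33) over all temperatures, and for MAF4 at 10 °C (-0.72 to 0.63), 16 °C (-0.66 to 0.0199) and 27 °C (-0.12 to 0.49). So did SVP at 23 °C (-0.11 to 0.19) and 27 °C (-0.13 to 0.35), MAF2 at 23 °C (-0.29 to 0.065) and FLM at 27 °C (-0.70 to 0.019). In Col-0 at 10 against 23 °C, SVP (-0.14 to 0.15), FLC (-0.083 to 1.46), MAF2 (-0.11 to 0.27) and MAF4 (-1.29 to 0.094) did so. At 16 against 23 °C these were SOC1 (-0.14 to 0.55) and MAF4 (-0.042 to 0.41), and at 27 against 23 °C FLM (-0.61 to 0.10), SVP (-0.38 to 0.10) and MAF2 (-0.12 to 0.24). SVP in IP-Svi-0 at 27 against 23 °C (-0.15 to 0.016) and the MAF4 difference between responses at 27 against 10 °C (-0.47 to 0.91) also crossed. The permutation difference ranged from -1.43 to 2.55 CPM for MAF3 and from -4.21 to -2.63 CPM for MAF5. Depth limits the Col-0 values of FLC, SOC1, MAF5 and AGL24, which had 23 to 30 counts over 12 libraries.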
